A study of Mus musculus with 2 samples.

Results

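Of 13191 cells kept from a CD4 T cell sort of mouse visceral adipose tissue, 259 carried at least 1 transcript of Il5 or Il13 and none of Foxp3. These Il5 or Il13 cells numbered 170 of 6853 cells from mice lacking CD27 (CD27_KO) and 89 of 6338 cells from wild-type mice (WT). A cell counted as one of them when its barcode held at least 1 unique molecular identifier (UMI, 1 counted RNA molecule) of either cytokine gene and 0 of Foxp3, the factor that defines regulatory T (Treg) cells. A barcode was kept with 500 or more genes and no more than 10% of its UMIs from mitochondrial genes. Il5, Il13 and Foxp3 therefore chose the cells, and their values are given as a description only.

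The sort took cells bearing TCRb and CD4 out of the stromal vascular fraction, which is what remains of visceral fat once adipocytes are removed. Each group was 1 droplet 3′ single-cell RNA library from pooled mice (10, although the labels leave unclear whether per pool or in all), and the spread between mice is therefore unknown. The groups were CD27-/- mice (CD27_KO) and C57BL/6 wild-type mice (WT). The groups rest on the library titles, as the genotype entry reads C57BL/6 for both, and the sources used here do not give age or sex. CD27, a TNF receptor family member, costimulates T cells. The design text also describes crosses with a CD70 transgene driven by CD11c, and CD27+/- mice, neither of which is among these libraries. All intervals are exact 95% intervals and cover counting error only.

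IL-5 and IL-13 are the effector cytokines of type 2 immunity. IL-5 sustains eosinophils, and IL-13 acts on macrophages and epithelium and favours alternative macrophage activation. In lymphocytes both genes depend on the transcription factor GATA3, and the alarmin IL-33, through its receptor ST2 (gene Il1rl1), drives their release. In adipose tissue they are mainly known from group 2 innate lymphoid cells, T helper 2 (Th2) cells and the eosinophils they maintain.

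The CD27_KO library held 20191704 UMIs in 6893 barcodes and the WT library 16628623 in 6398. Medians were 2209 and 1946 UMIs per kept cell in CD27_KO and WT. Cd27 itself gave 15 UMIs in CD27_KO, or 0.744 counts per 1000000 UMIs (CPM), against 2132 UMIs or 129 CPM in WT. The libraries shared 12 barcodes, and 0 of the CD27_KO and 1 of the WT Il5 or Il13 cells had such a barcode.

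Il5 and Il13 lie on mouse chromosome 11, 86092 bases apart, with the gene Rad50 between them. In the mm10 annotation Il13 (ENSMUSG00000020383) runs from 53631324 to 53634702 on the minus strand and Il5 (ENSMUSG00000036117) from 53720794 to 53725106 on the plus strand, while Il4 lies 12655 bases beyond Il13. The promoters are shown because GATA3 acts on both genes and Gata3 was seen in most of these cells. Each stretch covers 250 bases before and 50 after the start site in RefSeq (build GRCm38.p6), is written 5′ to 3′ on the gene's own strand, and has in capitals the only match to a GATA motif (the letters GATA after A or T and before A or G, on either strand).
Il5 promoter, chr11:53720544-53720843, plus strand: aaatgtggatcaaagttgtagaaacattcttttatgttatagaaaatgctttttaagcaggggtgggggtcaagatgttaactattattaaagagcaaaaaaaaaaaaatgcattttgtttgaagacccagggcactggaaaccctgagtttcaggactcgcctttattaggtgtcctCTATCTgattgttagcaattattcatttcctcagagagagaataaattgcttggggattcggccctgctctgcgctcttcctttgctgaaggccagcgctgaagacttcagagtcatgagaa
Il13 promoter, chr11:53634653-53634952, minus strand: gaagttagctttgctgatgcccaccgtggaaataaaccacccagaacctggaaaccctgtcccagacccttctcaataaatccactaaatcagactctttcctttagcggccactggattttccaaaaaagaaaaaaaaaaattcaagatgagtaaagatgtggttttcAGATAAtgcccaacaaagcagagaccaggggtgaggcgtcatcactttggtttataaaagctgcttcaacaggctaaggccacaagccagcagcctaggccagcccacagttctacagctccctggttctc
The Il5 match lay at −72 to −67 from the start, on the opposite strand, and the Il13 match at −81 to −76. At least 1 such match was present in 9773 of 32817 promoters of the same length (29.8%), so its presence does not set these promoters apart. An AP-1 motif (TGANTCA) matched neither promoter, against 7.81% of all promoters.

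Most cells carried 1 of the cytokines and few UMIs of it. Il5 alone was found in 106 CD27_KO and 61 WT cells, Il13 alone in 44 and 19, and both genes in 20 and 9. Of the cells with Il13, 31.2% in CD27_KO and 32.1% in WT also had Il5. A single UMI placed 98 CD27_KO cells (57.6%) and 55 WT cells (61.8%) in the set, and 6 cells in each library held 10 or more. These lie just inside the rule. Just outside it were 23 CD27_KO and 19 WT cells with Il5 or Il13 and Foxp3, of which 9 in each library had a single Foxp3 UMI.

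The transcripts were concentrated in a few cells. Il5 gave 338 UMIs in CD27_KO cells and 162 in WT cells, with at most 49 and 16 in 1 cell. The 5 highest cells held 39.6% of the Il5 UMIs in CD27_KO and 34.6% in WT. Il13 gave 208 UMIs in CD27_KO cells and 108 in WT cells, and the 5 highest cells held 40.4% and 67.6% of them. Per UMI sequenced in these cells, Il5 stood at 435 CPM in CD27_KO and 488 CPM in WT, and Il13 at 268 and 325 CPM. The plot of Il5 against Il13 UMIs per cell shows the crowd at 1 UMI and the few cells high in both.

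**Figure D1:**
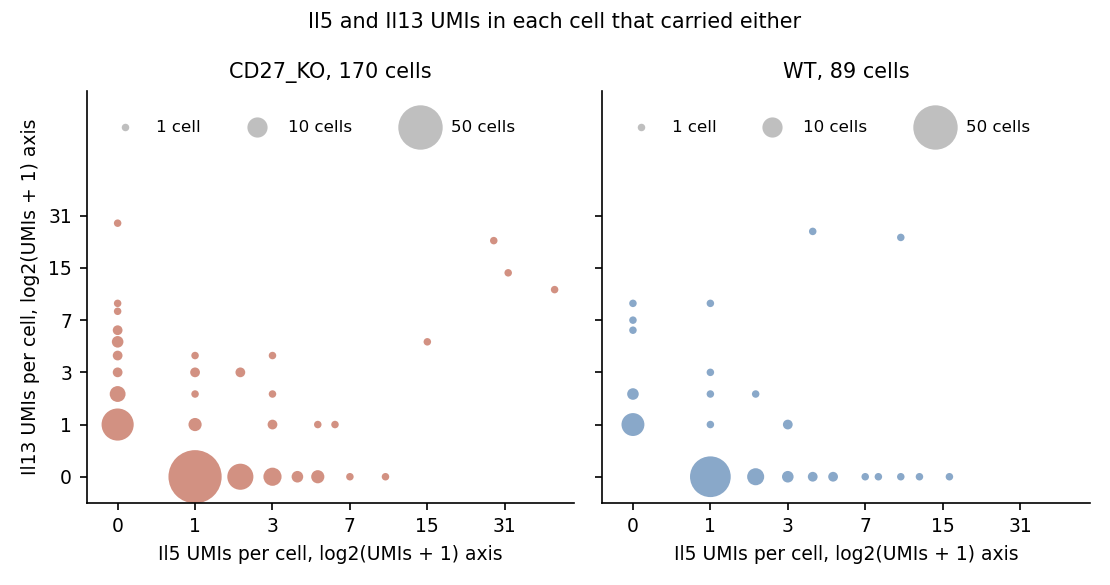
Il5 UMIs (x axis) and Il13 UMIs (y axis) in each cell with either gene, on log2(UMIs + 1) axes, in CD27_KO (left, 170 cells) and WT (right, 89 cells); the area of a point shows the number of cells. Most cells lie at 1 UMI of a single gene, and 20 CD27_KO and 9 WT cells carry both.

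Il5 or Il13 cells were more frequent in CD27_KO. They made up 2.48% of CD27_KO cells (interval 2.12 to 2.88) and 1.40% of WT cells (1.13 to 1.73), a ratio of 1.77 (1.36 to 2.31). With every cell thinned to 1300 UMIs the shares were 1.27% and 0.846%, a ratio of 1.495 (1.04 to 2.17). Thinning left out 55 CD27_KO and 547 WT cells below that depth. Cells with Ccr7 and Lef1, genes of naive T cells that should lack both cytokines, served as background, whether or not they had Foxp3. Of these, 1 of 192 in CD27_KO (0.521%) and 1 of 494 in WT (0.202%) carried either cytokine gene, at medians of 2337 and 2212 UMIs. In the whole libraries the share was therefore above that background in WT, and in CD27_KO it lay within the wide interval of the background (0.0132% to 2.87%), while the cells with Gata3 and Il1rl1 described next lay above it in both.

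The larger share went with a larger pool of cells carrying Gata3 and Il1rl1. Foxp3-negative cells with at least 1 UMI of each of these genes were 19.3% of CD27_KO cells (18.4 to 20.3) and 9.45% of WT cells (8.74 to 10.2), a ratio of 2.05 (1.86 to 2.26). Within that pool, 131 of 1325 CD27_KO cells had Il5 or Il13 (9.89%, interval 8.33 to 11.6), against 53 of 599 WT cells (8.85%, 6.698 to 11.4). The ratio within the pool was 1.12 (0.806 to 1.57), and 0.858 (0.481 to 1.58) after thinning. The share was 4.07% in CD27_KO and 5.23% in WT among cells with Il1rl1 and no Gata3, 1.001% and 1.21% with Gata3 and no Il1rl1, and 0.213% and 0.156% with neither gene. At equal Gata3 and Il1rl1 status the libraries thus lay within each other's intervals.

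**Figure D2:**
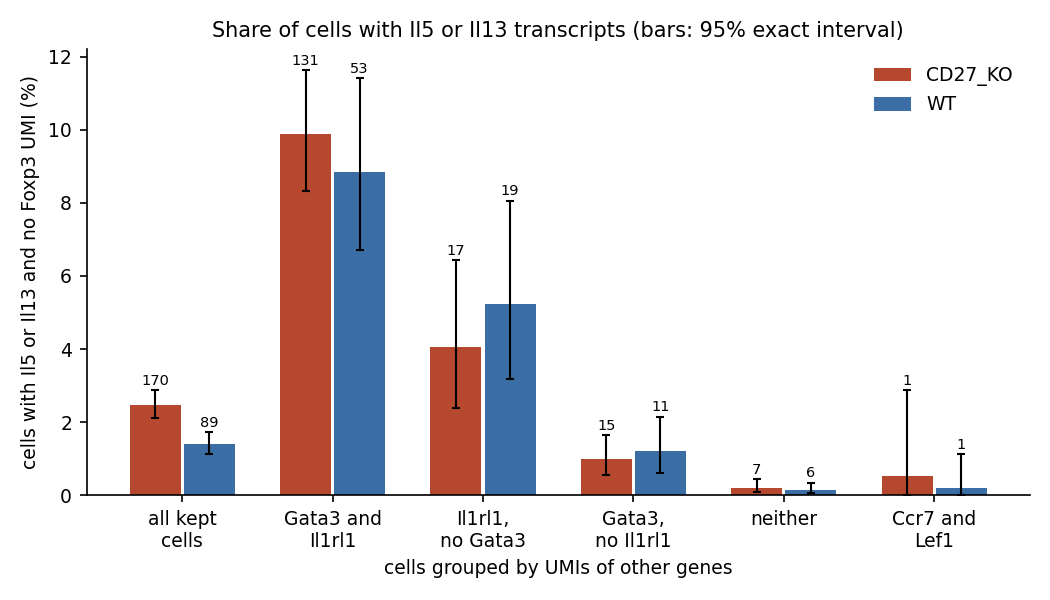
Share of cells with Il5 or Il13 and no Foxp3 UMI (y axis, percent; thin lines are exact 95% intervals) in all kept cells, in Foxp3-negative cells grouped by Gata3 and Il1rl1 UMIs, and in cells with Ccr7 and Lef1, for CD27_KO (red) and WT (blue); numbers above the bars count the cells. The cells with Ccr7 and Lef1 were counted whether or not they had Foxp3. The libraries differ over all kept cells (2.48% and 1.40%) and lie within each other's intervals inside each group.

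Cells with Il4, the third cytokine gene of the locus, showed another order. Of Foxp3-negative cells with Il4, 52 of 677 in CD27_KO (7.68%, 5.79 to 9.95) and 17 of 110 in WT (15.5%, 9.27 to 23.6) also had Il5 or Il13, a ratio of 0.497 (0.283 to 0.917). After thinning the shares were 3.85% and 11.3%. Cells with Il4 were more frequent in CD27_KO: 9.83% of the Foxp3-negative cells without Il5 and Il13 had an Il4 UMI, against 1.65% in WT. Among Foxp3-positive cells, 7.12% in CD27_KO (23 of 323) and 3.04% in WT (19 of 626) carried Il5 or Il13, at medians of 4324 and 3396 UMIs.

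The cells carried T cell genes and markers of Th2 cells. All 170 CD27_KO and all 89 WT cells had a UMI of at least 1 of 8 T cell genes, and 98.2% and 95.5% had at least 1 of 9 Th2 markers, against 55.3% and 35.1% of the other Foxp3-negative cells. Of the Th2 markers, Ptgdr2 was at 0 in both libraries and Il17rb was seen in 2 CD27_KO and 1 WT cells. Markers of group 2 innate lymphoid cells, which the sort should remove, include Calca. They were seen in 27.6% of CD27_KO and 22.5% of WT Il5 or Il13 cells, against 4.83% and 1.58% of the others. Foxp3-negative cells with Gata3 and Il1rl1 but neither cytokine had them in 15.6% in CD27_KO and 8.97% in WT. The summed level of these markers was 245 CPM in CD27_KO and 313 CPM in WT Il5 or Il13 cells, and Nmur1 and Hes1 were at 0 in WT. Arg1, the first of that list, was seen in 20 CD27_KO cells (11.8%) and 3 WT cells (3.37%). Markers of eosinophils were at 0 in both libraries, those of mast cells and basophils came to 1 UMI in CD27_KO and 0 in WT, and those of NKT cells to 0 and 1 UMI. CD8 markers were seen in 7 CD27_KO cells (4.12%) and 0 WT cells, against 2.04% and 1.78% of the others. Of 5 myeloid markers, 4 were seen in CD27_KO and only Cst3 in WT. Their sum was 175 and 169 CPM, against 156 and 176 CPM in the others. Of 4 stromal markers only Dcn was seen, with 1 UMI in CD27_KO and 2 in WT.

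A few of the barcodes may hold more than 1 cell. At least 5 UMIs of dendritic cell genes (Siglech, Tcf4, Irf8 and Tyrobp) or of B cell genes (Cd79a, Cd79b and Ms4a1), beside T cell genes, were found in 2 of the CD27_KO and 4 of the WT Il5 or Il13 cells. These barcodes held 11866 to 15348 UMIs in CD27_KO and 4608 to 14528 in WT. Without such barcodes the ratio of the shares was 1.82. The median Il5 or Il13 cell had 3626 UMIs in CD27_KO (1317 to 18808) and 2839 in WT (1217 to 14528), above the 2157 and 1883 of the other Foxp3-negative cells.

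To find the genes that accompanied Il5 and Il13, UMIs were summed over the 170 CD27_KO and 89 WT cells and set against the other Foxp3-negative cells of the same library, 6360 in CD27_KO and 5623 in WT. Of the 1716 genes with enough counts in both libraries, 32 (1.86%) were at least 2-fold higher in both and 7 (0.408%) at least 2-fold lower in both. In CD27_KO alone, 73 of 4037 genes (1.81%) were higher and 24 (0.595%) lower, and in WT 119 of 1722 (6.91%) were higher and 22 (1.28%) lower. The median log2 ratio over all genes tested was 0.03 in CD27_KO and 0.09 in WT. With 1 library per group these are counts past a fold, with no test. Besides the genes described with their values in the next paragraphs, the 32 held Ctla2a, Dhx40, Gadd45b, Gm20186, Hilpda, Il10ra, Klf4, Lmna, Map3k8, Nfkb1, Nfkbiz, Rrad and Xbp1.

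**Figure D3:**
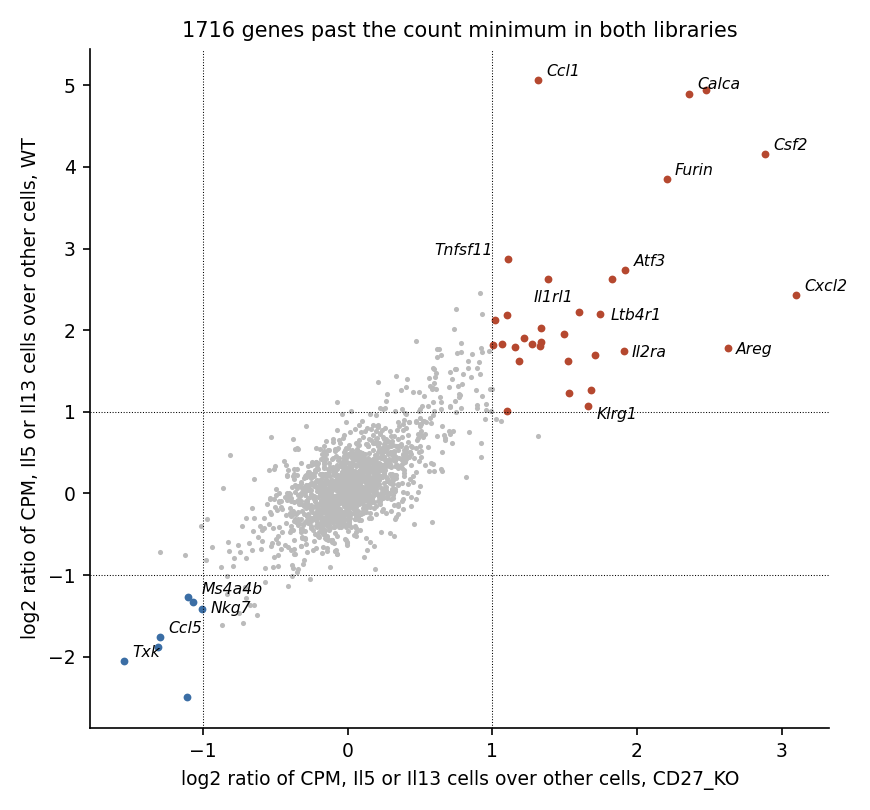
Log2 ratio of CPM of Il5 or Il13 cells over the other Foxp3-negative cells in CD27_KO (x axis) and WT (y axis) for the 1716 genes with enough counts in both; dotted lines mark 2-fold, red points the 32 genes higher in both and blue points the 7 lower in both. Csf2, Furin, Calca and Cxcl2 lie far out in both libraries, and Ccl1 mainly in WT.

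Csf2, which encodes the myeloid growth factor GM-CSF and lies on the same chromosome, was the cytokine furthest up. It was seen in 28.8% of CD27_KO Il5 or Il13 cells (22.2 to 36.3) and 37.1% of WT Il5 or Il13 cells (27.1 to 48.0), with 397 and 372 UMIs. Other Foxp3-negative cells had it in 4.15% in CD27_KO and 3.08% in WT. The log2 ratio was 2.89 (2.72 to 3.05) in CD27_KO and 4.15 (3.97 to 4.33) in WT. The highest cell held 9.57% of the Csf2 UMIs in CD27_KO and 16.4% in WT.

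Areg, the epidermal growth factor family ligand amphiregulin linked to tissue repair, was seen in 30.6% of CD27_KO and 41.6% of WT Il5 or Il13 cells. The other cells had Areg in 6.59% in CD27_KO and 11.2% in WT. Its log2 ratios were 2.63 (2.49 to 2.76) in CD27_KO and 1.78 (1.62 to 1.94) in WT. Areg was thus frequent in both libraries.

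Il4, whose product directs Th2 differentiation, was seen in 30.6% of CD27_KO (23.8 to 38.1) and 19.1% of WT Il5 or Il13 cells (11.5 to 28.8). The log2 ratio of Il4 to the other cells was 0.92 (0.57 to 1.25) in CD27_KO and 3.06 (2.39 to 3.67) in WT, where it fell under the count minimum for a call. Against CD27_KO cells with Gata3 and Il1rl1 but neither Il5 nor Il13, Il4 did not reach 2-fold. With cells carrying Ikzf2 or Ctla4 left out, its log2 ratio over those cells was −0.12 (−0.55 to 0.29). Il10, which encodes an inhibitory cytokine, was seen in 0 of 170 CD27_KO cells, which at 3 counts allows a share of cells with an Il10 UMI of up to 1.76% (exact interval 0 to 2.15), and in 1 of 89 WT cells. Of the 10 other cytokines listed, 5 in CD27_KO and 4 in WT had enough counts. Csf2 and Areg were at least 2-fold higher in both libraries, while Il2, the T cell growth factor, and Tgfb1 passed that fold in WT (1.22 and 1.42) and stood at 0.27 and 0.85 in CD27_KO. Il3 and Il9 had 0 UMIs in these cells, and Il21 had 0 in CD27_KO and 1 in WT. Il6, chosen after its values were seen, was found in 22 CD27_KO cells (12.9%) and 6 WT cells (6.74%), against 1.68% and 0.338% of the other cells.

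2 chemokine genes were among the 32. Cxcl2, a neutrophil attractant, was seen in 15.3% of CD27_KO and 39.3% of WT Il5 or Il13 cells, against 2.19% and 8.23% of the other cells, with log2 ratios of 3.10 (2.95 to 3.24) and 2.43 (2.34 to 2.53). Under a stricter cell filter, which asked for 1000 genes and allowed 5% of UMIs from mitochondrial genes, the WT ratio was 1.51 (1.37 to 1.65). Ccl1, the ligand of CCR8, was found in 9 CD27_KO and 10 WT cells, with log2 ratios of 1.31 (0.84 to 1.75) and 5.06 (4.57 to 5.55). The highest cell held 41.3% of the Ccl1 UMIs in CD27_KO and 30.8% in WT. Ccl1 therefore rested on few cells in either library.

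Among receptors, Il1rl1, the IL-33 receptor, was seen in 87.1% of CD27_KO (81.1 to 91.7) and 80.9% of WT Il5 or Il13 cells (71.2 to 88.5), against 25.1% and 15.8% of the other cells. Its log2 ratio was 1.60 (1.49 to 1.72) in CD27_KO and 2.22 (2.03 to 2.41) in WT. Il2ra, the high-affinity chain of the IL-2 receptor, was seen in 61.8% and 58.4%, against 14.2% and 12.3% of the other cells, with log2 ratios of 1.91 and 1.75. Of the 14 alarmin and cytokine receptors listed, these 2 of 8 measured in both libraries were higher in both, and Il18r1 was lower in WT (−1.09) and at −0.57 in CD27_KO. Ltb4r1, a receptor for leukotriene B4, was seen in 70.0% of CD27_KO and 62.9% of WT cells, against 15.1% and 10.9% of the other cells, and was the only lipid mediator gene of 10 listed with enough counts in both. Klrg1, a receptor of activated and tissue T cells, was seen in 60.6% of CD27_KO and 43.8% of WT cells, against 13.6% and 12.8%.

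Calca and Ramp1, which encode the neuropeptide CGRP and a subunit of its receptor, were both higher in both libraries. Calca was seen in 14.7% of CD27_KO (9.75 to 20.9) and 20.2% of WT Il5 or Il13 cells (12.4 to 30.1), and in 2.77% and 0.765% of the other cells. Its log2 ratio was 2.36 (2.08 to 2.62) in CD27_KO and 4.90 (4.51 to 5.28) in WT. Ramp1 was seen in 37.6% of CD27_KO and 47.2% of WT cells, with log2 ratios of 1.69 and 1.27. They were the 2 of 10 listed neuropeptide and neuronal receptor genes with enough counts in both libraries.

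Gata3 was seen in 85.9% of CD27_KO (79.7 to 90.7) and 71.9% of WT Il5 or Il13 cells (61.4 to 80.9), against 42.1% and 25.7% of the other cells. After thinning to 1300 UMIs the shares of Il5 or Il13 cells with Gata3 were 58.8% and 54.0%. Its log2 ratio was 1.07 (0.94 to 1.19) in CD27_KO, where it was 0.94 with the stricter cell filter, and 1.83 (1.63 to 2.03) in WT. Gata3 and Il1rl1 occurred together in 77.1% of CD27_KO and 59.6% of WT cells, while 7 and 6 cells had neither. Of 16 type 2 transcription factors, 7 were measured in both libraries and Gata3 alone was higher in both. Bhlhe40, Rora and Rbpj passed 2-fold in WT (1.40, 1.43 and 1.17) and stood at 0.72, 0.60 and 0.77 in CD27_KO. Pparg, a nuclear receptor of fat metabolism that adipose Treg cells also use, was seen in 34 of 170 CD27_KO and 13 of 89 WT cells, against 4.92% and 2.03% of the other cells.

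Furin, a protease that cleaves proproteins including that of TGF-beta, was seen in 78.2% of CD27_KO (71.3 to 84.2) and 76.4% of WT Il5 or Il13 cells (66.2 to 84.8), against 23.5% and 9.96% of the other cells. The log2 ratio of Furin was 2.20 (2.11 to 2.30) in CD27_KO and 3.85 (3.70 to 3.999) in WT. The remaining genes named by rank were Atf3, a stress-induced transcription factor (1.92 and 2.73), Ptpn13, a phosphatase (1.82 and 2.62), Myadm (1.71 and 1.69) and Plin2, a coat protein of lipid droplets (1.52 and 1.62). Of 13 lipid handling genes Plin2 was the only one higher in both, and Acadl and Dgat1 passed 2-fold in WT. With the stricter cell filter Plin2 stood at 0.89 (0.27 to 1.46) in WT, below 2-fold.

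**Figure D4:**
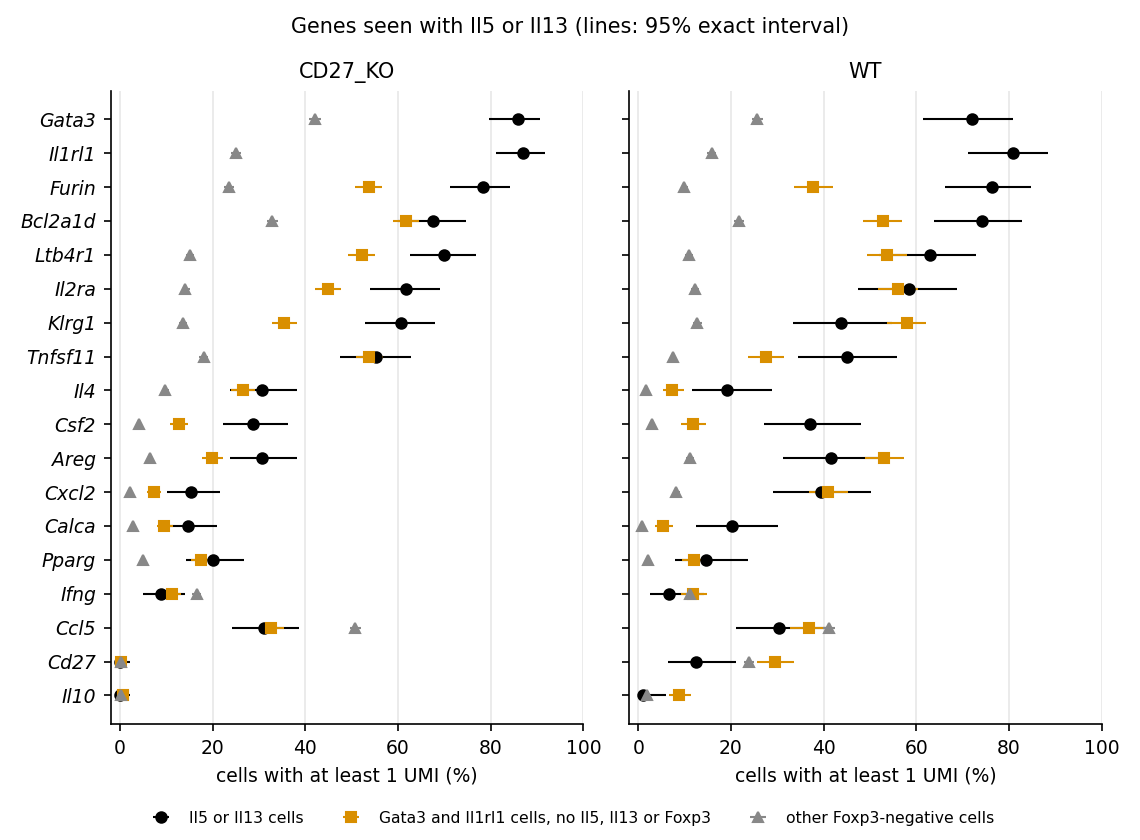
Share of cells with at least 1 UMI of each gene (x axis, percent; lines are exact 95% intervals) among Il5 or Il13 cells (circles), Gata3 and Il1rl1 cells without Il5, Il13 and Foxp3 (squares) and the other Foxp3-negative cells (triangles), in CD27_KO (left) and WT (right). Furin, Csf2 and Calca stand to the right of both other groups of cells in each library, and Ccl5 and Ifng to the left of the other Foxp3-negative cells.

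Of the 7 genes lower in both libraries, 3 were uncharacterised (Gm8369, Gm2682 and BE692007). Ccl5, a chemokine of effector and memory T cells, was seen in 31.2% of CD27_KO and 30.3% of WT Il5 or Il13 cells, against 50.8% and 41.2% of the other cells, with log2 ratios of −1.30 (−1.41 to −1.18) and −1.76 (−1.95 to −1.57). Txk, a kinase of the Tec family, was at −1.55 and −2.06, Nkg7, a protein of cytotoxic granules, at −1.004 and −1.41, and Ms4a4b at −1.07 and −1.34. With the stricter cell filter Nkg7 and Ms4a4b were both at −0.91 in CD27_KO, below 2-fold, and Txk at −1.22 in WT. Gimap7 and Satb1, next by rank, did not pass 2-fold in both (−0.88 and −0.87 in CD27_KO, −0.91 and −1.62 in WT). Of 12 Th1 genes, 4 were measured in both libraries, and Ccl5 and Nkg7 were lower in both. Ifng, the defining Th1 cytokine, was seen in 8.82% of CD27_KO and 6.74% of WT Il5 or Il13 cells, against 16.6% and 11.2% of the others, and Cxcr3, a Th1 chemokine receptor, was at −1.49 in CD27_KO and under the count minimum in WT. Cd27 was seen in 12.4% of WT Il5 or Il13 cells (6.33 to 21.0) and in 23.9% of the other WT cells, a log2 ratio of −1.15 (−1.89 to −0.51).

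Other gene lists showed smaller or uneven differences from the other Foxp3-negative cells. Of 20 immediate early and T cell receptor response genes, 1 of 18 measured in CD27_KO and 9 of 15 in WT were at least 2-fold higher, with median log2 ratios of 0.50 and 1.03. Nr4a1, induced by T cell receptor signals, was higher in both (1.01 and 1.82). Of 9 naive and recirculation genes, 0 of 6 in CD27_KO and 4 of 6 in WT were lower (Lef1, S1pr1, Klf2 and Satb1), with medians of −0.70 and −1.30. Of 14 chemokine receptors, none of 4 measured in both moved the same way past 2-fold, while Cxcr6 and Ccr2 were higher in WT (1.49 and 1.52) and stood at 0.70 and 0.75 in CD27_KO. Of 13 survival and TRAF genes, Bcl2a1b, Bcl2a1d and Traf1 were higher in WT and none in CD27_KO. Of 13 TNF ligands and receptors, Tnfsf11, the ligand RANKL, was higher in both (1.11 and 2.87) and Cd40lg in WT (1.14, against 0.26 in CD27_KO). Of 12 tissue residency genes, Cxcr6, Rgs2 and Bhlhe40 were higher in WT and Itga1 lower in CD27_KO. Of 15 tissue Treg genes Klrg1 was higher in both (1.66 and 1.07), Capg in CD27_KO and Tnfrsf4 in WT. Klrg1 was close to the fold in WT and fell below it there with the stricter cell filter (0.48, 0.01 to 0.92). None of the 9 heat shock genes, the 9 Th17 genes or the 12 costimulatory and inhibitory receptors passed 2-fold in either library. The numbers measured were 6, 2 and 8 in CD27_KO and 5, 1 and 6 in WT. Over all genes tested 1.81% were higher and 0.595% lower in CD27_KO, and 6.91% and 1.28% in WT. A count of 0 in lists this short therefore does not set them apart.

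Few genes passed 2-fold against the Gata3 and Il1rl1 cells that lacked Il5, Il13 and Foxp3. Against 1194 such cells in CD27_KO and 546 in WT, 4 of 1783 genes (0.224%) were at least 2-fold higher in both libraries and 0 (0%) lower in both. The 4 were Csf2, Furin, Calca and Hdc. Calca and Hdc lay close to the fold in CD27_KO. Without the highest cell per gene, 2 genes in place of 4 were past 2-fold in both. In CD27_KO alone 19 of 4035 genes (0.471%) were higher and 2 (0.0496%) lower, and in WT 24 of 1794 (1.34%) and 9 (0.502%). These cells were nearest in depth, with medians of 3082 UMIs in CD27_KO and 3097 in WT.

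Csf2 was seen in 12.7% of these Gata3 and Il1rl1 cells in CD27_KO and 11.7% in WT, and the log2 ratio of Il5 or Il13 cells over them was 1.73 (1.55 to 1.91) and 2.49 (2.28 to 2.69). Furin stood at 1.26 (1.16 to 1.36) in CD27_KO and 2.03 (1.87 to 2.20) in WT, and Calca at 1.02 (0.74 to 1.30) and 2.63 (2.22 to 3.04). Hdc, the enzyme that makes histamine, falls outside the rule for named genes because fewer than 10% of the CD27_KO cells had it. It was seen in 16 CD27_KO cells (9.41%, 5.48 to 14.8) and 15 WT cells (16.9%, 9.75 to 26.3). The Gata3 and Il1rl1 cells had Hdc in 8.12% in CD27_KO (6.64 to 9.82) and 4.40% in WT (2.84 to 6.47). In CD27_KO the intervals of these shares overlapped, and in WT they lay apart. The log2 ratios of Hdc were 1.001 in CD27_KO, at the edge of the fold, and 3.31 in WT. Rbpj, Xbp1 and Ero1l came next by rank and did not reach 2-fold in both (0.73, 0.67 and 0.66 in CD27_KO, 0.80, 1.17 and 0.82 in WT).

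Some genes of the Il5 or Il13 cells stood in another order in the 2 libraries when set against the Gata3 and Il1rl1 cells. Areg was at 1.34 (1.20 to 1.48) in CD27_KO and −0.02 (−0.19 to 0.14) in WT, as 19.8% of the CD27_KO and 53.1% of the WT Gata3 and Il1rl1 cells had it. Klrg1 was at 0.71 (0.47 to 0.94) and −0.61 (−0.99 to −0.24), and Tnfsf11 at −0.20 (−0.39 to −0.02) and 1.25 (0.96 to 1.54). Ikzf2, which encodes the Treg factor Helios, was at −0.83 and −1.18 (−0.84 in WT with the stricter cell filter), and Ctla4 at −0.45 and −1.65. The other genes named as lowest (S1pr1, Epsti1, Slfn1 and Rhoh) did not reach 2-fold in either library. Of the gene lists, beside the genes already named, the cell cycle genes Mki67, Top2a, Pclaf and Stmn1 were higher in CD27_KO (4 of 5 measured), Ramp1 was higher in CD27_KO, Bcl2a1d in WT, and Ccl5, Dusp2 and Icos were lower in WT.

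The WT Gata3 and Il1rl1 cells carried more Treg markers. At least 1 of Ikzf2, Ctla4 and Il2ra was seen in 56.4% of them in CD27_KO (449 CPM in sum) and 84.1% in WT (1559 CPM), against 70.6% (493 CPM) and 69.7% (792 CPM) of the Il5 or Il13 cells. Without cells carrying Ikzf2 or Ctla4, an alternative added after seeing the data, 3 genes in place of 4 were past 2-fold in both. Csf2 then stood at 1.75 in CD27_KO and 1.34 in WT, Furin at 1.28 and 1.04, and Calca at 0.77 and 2.59. Areg moved up to 0.48 (0.19 to 0.76) in WT, and its interval in CD27_KO was 1.32 to 1.68. Klrg1 moved up to 0.01 (−0.785 to 0.77) in WT and stood at 0.80 (0.498 to 1.09) in CD27_KO. The intervals of the libraries thus overlapped for Klrg1 and stayed apart for Areg.

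Cells with 2 or more UMIs of the cytokines were set against those with 1. Klrg1 was seen in 75.0% (63.4 to 84.5) of the 72 CD27_KO cells with 2 or more UMIs of Il5 and Il13 together, against 49 of the 98 with 1 (39.7 to 60.3), and these intervals lie apart. In WT it was seen in 61.8% (43.6 to 77.8) of the 34 cells with 2 or more and in 18 of the 55 with 1 (20.7 to 46.7), and the intervals overlap. Cxcl2 was seen in 17 of those 72 CD27_KO cells (14.4 to 35.1) and 17 of those 34 WT cells (32.4 to 67.6), against 9.18% (4.29 to 16.7) and 32.7% (20.7 to 46.7) with 1, with overlapping intervals in both libraries. The shares with several other genes, among them Furin, Areg, Atf3, Ptpn13, Bcl2a1d and Il6, were likewise higher at 2 or more UMIs in both libraries, with overlapping intervals for these 6. Median depth was 4042 and 2878 UMIs with 2 or more, against 3118 and 2839 with 1, and its part in these shares was not tested. Gata3, Il1rl1, Furin and Csf2 were present at a single UMI too: in CD27_KO 84.7%, 84.7%, 73.5% and 27.6% of cells with 1 UMI had them, and in WT 67.3%, 76.4%, 70.9% and 34.5%.

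Csf2 in WT and Areg in CD27_KO stood highest in cells with both cytokine genes. Csf2 in CD27_KO and Areg in WT were there close to their level with Il13 alone. Csf2 stood at 295 CPM with Il5 alone, 903 CPM with Il13 alone and 955 CPM with both in CD27_KO, and at 886, 611 and 4409 CPM in WT, where 7 of the 9 cells with both had it. Areg stood at 460, 996 and 1699 CPM in CD27_KO and 869, 1451 and 1470 CPM in WT. Il4 was seen in 23.6%, 45.5% and 35.0% of these cells in CD27_KO and 16.4%, 15.8% and 44.4% in WT. With 20 and 9 cells carrying both, these are levels of few cells. Il4 or Csf2 accompanied Il5 or Il13 in 45.3% of CD27_KO and 47.2% of WT cells, and both did in 14.1% and 8.99%.

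The last comparison set the CD27_KO against the WT Il5 or Il13 cells. Gata3 and Il1rl1 stood within 2-fold, Top2a, Stmn1 and Mcm6 were higher, and Ikzf2, Cxcl2 and Mt1 were lower in CD27_KO. Top2a, Stmn1 and Mcm6 reached the count minimum through CD27_KO, and Ikzf2 and Mt1 through WT, in each case the library where they were higher. Their values are therefore a description only. Among 3027 genes that reached 50 UMIs, 91 (3.01%) were 2-fold or more higher and 27 (0.892%) lower in CD27_KO, with a median log2 ratio of 0.10. The CD27_KO cells held 776442 UMIs and the WT cells 331923, so a gene could reach 50 UMIs through CD27_KO alone more easily than through WT alone. With cells thinned to 1300 UMIs, 19 were higher and 10 lower. Among Gata3 and Il1rl1 cells without the cytokines 1.60% of genes were higher and 1.87% lower, and among the other Foxp3-negative cells 2.08% and 2.84%. Of the 91 higher genes, 5 also passed 2-fold upward in the Gata3 and Il1rl1 cells, and of the 27 lower genes 14 also passed 2-fold downward there. Without a fold, 74 of the 91 and 23 of the 27 had the same direction in those cells. In the other Foxp3-negative cells 85 and 19 did.

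Gata3 was at 717 CPM in CD27_KO and 678 CPM in WT cells, a log2 ratio of 0.08 (−0.14 to 0.31). Il1rl1 was at 885 and 768 CPM (0.20, −0.01 to 0.42), Pparg at 77.3 and 84.4 CPM (−0.13, −0.80 to 0.58), Klrg1 at 246 and 202 CPM (0.29, −0.12 to 0.71) and Furin at 1406 and 1552 CPM (−0.14, −0.29 to 0.01). The intervals of these ratios leave out a 2-fold difference, but with at least 2 UMIs of Il5 and Il13 Pparg stood at −1.03 (−1.96 to −0.08). Il4 was at 103 and 78.3 CPM (0.40, −0.26 to 1.09), Areg at 732 and 1033 CPM (−0.50, −0.69 to −0.30), Calca at 182 and 298 CPM (−0.72, −1.10 to −0.33) and Ifng at 56.7 and 30.1 CPM (0.91, −0.10 to 2.07). Csf2 was at 511 CPM in CD27_KO and 1121 CPM in WT, a log2 ratio of −1.13 (−1.34 to −0.92). Part of its WT UMIs came from a single cell, as given above. As shares of cells, the ratio of CD27_KO to WT for Csf2 was 0.777 (0.490 to 1.25), and 0.709 (0.416 to 1.22) after thinning. Both of these intervals include equal shares. In the Gata3 and Il1rl1 cells Il4 was higher in CD27_KO (2.04) and Areg lower (−1.86), with intervals (1.64 to 2.47 and −1.96 to −1.76) apart from those in Il5 or Il13 cells, a contrast that was not tested.

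As shares of cells, the ratio of CD27_KO to WT was 1.19 (0.884 to 1.63) for Gata3, 1.08 (0.807 to 1.45) for Il1rl1, 1.60 (0.911 to 2.95) for Il4 and 0.736 (0.473 to 1.15) for Areg. All 4 intervals include equal shares. After thinning the ratios were 1.09, 1.08, 1.21 and 0.656.

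Top2a, Stmn1 and Mcm6, genes of dividing cells, had more UMIs in the CD27_KO cells. Top2a, the DNA topoisomerase of dividing cells, had 78 UMIs in 27 CD27_KO cells and 4 UMIs in 4 WT cells, a log2 ratio of 3.06 (1.65 to 4.97). Stmn1, a microtubule regulator, had 196 UMIs in CD27_KO and 15 in WT (2.48, 1.72 to 3.35), and Mcm6, a replication helicase subunit, 63 and 8 (1.75, 0.69 to 3.02). Mki67 or Top2a was seen in 31 of 170 CD27_KO cells (18.2%, 12.7 to 24.9) and 4 of 89 WT cells (4.49%, 1.24 to 11.1), against 10.4% and 9.34% of the Gata3 and Il1rl1 cells and 8.35% and 4.52% of the others. The CD27_KO over WT ratio of shares was 3.53 (1.23 to 13.9) for Top2a and 3.05 (1.27 to 8.88) for Mcm6. For Stmn1 it was 1.61 (0.823 to 3.4), an interval that includes equal shares. After thinning, the ratios for Top2a, Mcm6 and Stmn1 were 4.61 (0.638 to 202), 6.65 (0.999 to 283) and 1.71 (0.661 to 5.19). All of these thinned intervals include equal shares. Of 12 cell cycle genes, 4 had enough counts, and Top2a, Pclaf and Stmn1 were higher, but these 3 reached the count minimum through CD27_KO, so this count carries no support. Without cells that had Mki67 or Top2a, an alternative added after seeing the data, 53 genes in place of 91 were higher in CD27_KO, and Stmn1 stood at 0.27.

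Other genes named as higher were Samd11 with 81 UMIs in CD27_KO and 3 in WT (3.53), P2rx7, a receptor for extracellular ATP (2.01), Kcnab2, a potassium channel subunit (2.01), Impa1, an inositol phosphatase (1.97), Trat1, an adaptor at the T cell receptor (1.94), Abhd17b (1.75) and Mfsd14a (1.65). Samd11, P2rx7 and Trat1 were also at least 2-fold higher in CD27_KO in the Gata3 and Il1rl1 cells (3.94, 1.01 and 1.22) and in the other cells (4.28, 1.27 and 1.22). Kcnab2, Impa1, Abhd17b and Mfsd14a were not (−0.18, 0.12, −0.09 and 0.33 in the Gata3 and Il1rl1 cells), and each had at most 7 UMIs in WT Il5 or Il13 cells. Samd11 stood at 1.26 after thinning and Kcnab2 at −0.04 with at least 2 UMIs of the cytokines.

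Apart from the unnamed gene model Gm43305 (−5.93), the gene lowest in CD27_KO was Mt1, a metallothionein, with 7 UMIs in CD27_KO and 59 in WT, a log2 ratio of −4.30 (−5.68 to −3.17). Ikzf2 was at −2.40 (−2.97 to −1.84), and Ctla4 and Tnfrsf4, costimulatory and inhibitory receptors abundant on Treg cells, at −1.06 and −1.03. Of 15 tissue Treg genes, 6 had enough counts and these 3 were lower, with a median of −0.75 against 0.10 over all genes. They were also lower in the Gata3 and Il1rl1 cells (Ikzf2 −2.75, Ctla4 −2.26 and Tnfrsf4 −1.29), and Tox, a factor of chronically stimulated T cells, was at −1.26 in Il5 or Il13 cells and −2.001 there. Cxcl2 had 542 UMIs in CD27_KO and 965 in WT, a log2 ratio of −2.06 (−2.21 to −1.90), or −1.23 (−1.41 to −1.05) with the stricter cell filter, and Plin2 and Hilpda, genes of lipid droplets, were at −1.03 and −1.21. Cdkn1a, a cell cycle inhibitor, was at −1.36. Without cells that had Mki67 or Top2a Hilpda was at −0.99, and with at least 2 UMIs of the cytokines Cdkn1a was at −0.88. Ccl1 had 46 UMIs in CD27_KO and 65 in WT, a log2 ratio of −1.73 (−2.30 to −1.16), while it was higher in CD27_KO in the Gata3 and Il1rl1 cells (3.56, 2.61 to 4.70).

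Cd74 and Bst2, abundant in antigen-presenting and plasmacytoid dendritic cells, were at −1.63 and −1.49, and stood at −0.45 and −0.73 without the barcodes with dendritic or B cell genes. The highest cell held 62.5% of the Cd74 UMIs in CD27_KO and 42.4% in WT.

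**Figure D5:**
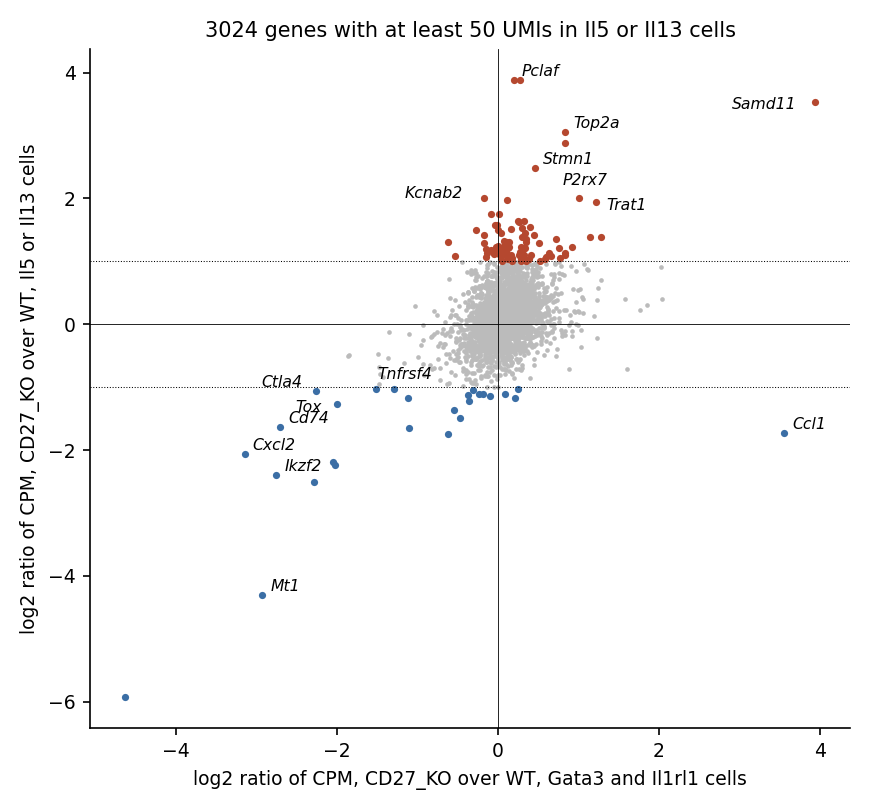
Log2 ratio of CPM of CD27_KO over WT in Gata3 and Il1rl1 cells without Il5, Il13 and Foxp3 (x axis) and in Il5 or Il13 cells (y axis) for 3024 genes; dotted lines mark 2-fold in Il5 or Il13 cells, red points the 91 genes higher and blue points the 27 lower in CD27_KO. Top2a, Stmn1 and Pclaf pass 2-fold on the y axis alone, Samd11 on both axes, Ikzf2, Cxcl2 and Mt1 are low on both, and Ccl1 is low on the y axis and high on the x axis.

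Of the remaining lists, the other cytokines had Csf2 as the 1 of 5 measured genes past 2-fold, lipid handling genes had Plin2 as 1 of 6 and costimulatory and inhibitory receptors had Tox as 1 of 7. None of the measured genes passed 2-fold among the alarmin and cytokine receptors (9), type 2 transcription factors (9), lipid mediator genes (2), chemokine receptors (5), Th1 genes (5), Th17 genes (2), naive and recirculation genes (6), immediate early genes (18), heat shock genes (6), tissue residency genes (9), survival and TRAF genes (8), TNF ligands and receptors (5) or neuropeptide genes (3). Over all 3027 genes 3.01% were higher and 0.892% lower, so a count of 0 in lists this short does not set them apart. The median log2 ratio was 0.37 for the type 2 transcription factors and −0.32 for the immediate early genes, against 0.10 over all genes.

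Genes beside Il5 and Il13 on chromosome 11 were looked at last. Within 500 kb on either side lie 25 other genes, of which 6 had enough counts in both libraries. None of the 6 was at least 2-fold higher or lower in both than in the other Foxp3-negative cells. Over all genes 1.86% were higher and 0.408% lower in both, so a count of 0 among 6 does not set these genes apart. In WT alone Zcchc10 (1.53), Aff4 (1.07) and Rad50 (1.05) passed 2-fold upward. They stood at 0.90, 0.51 and 0.90 in CD27_KO, and the rest of the 6 stayed within 2-fold in both libraries. Il4 also lies inside the window but is not among the 6, as it fell under the count minimum in WT. Its log2 ratios were 0.92 in CD27_KO and 3.06 in WT. Csf2, which starts at base 54247271, lies just past the window and was not counted here.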

How the data were processed

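The matrices hold UMI counts of called cells as the authors deposited them, made with Cell Ranger 6.1.1 per the file headers against mm10 per the submitters' processing notes. The sources used here give no further alignment settings, and the labels name different kit versions. Each matrix held 32285 genes and 1 antibody feature with 0 UMIs. Everything else was computed here with Python 3.11.15, numpy 2.4.6, pandas 2.3.3, scipy 1.17.1 and matplotlib 3.10.9, and the steps were tested on simulated data. The cells, gene lists and named genes were chosen with earlier results of these data known.

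Barcodes under 500 genes or over 10% mitochondrial UMIs were removed, 40 in CD27_KO and 60 in WT. No doublet caller was run, and barcodes with dendritic or B cell genes were counted and left out as an alternative. UMIs were summed over cells, scaled to CPM and compared as log2 ratios. Against other cells, a gene needed 50 UMIs over those seen in the Il5 or Il13 cells plus those expected there at the other cells' CPM. Between the libraries it needed 50 UMIs over both. A call was 2-fold. Gene positions are from GENCODE and promoters from RefSeq. Shares carry Clopper-Pearson intervals, summed UMIs and ratios exact Poisson intervals, which take each UMI as independent and are too narrow for genes concentrated in few cells. A count of 0 allows 3 counts. With 1 library per group no p-value or standard error was computed. For thinned shares each cell was reduced to 1300 UMIs, and shallower cells were left out.

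The named genes were 14 chosen by function, the 12 highest and 6 lowest against the other cells by the smaller difference of both libraries, 6 in each direction against Gata3 and Il1rl1 cells, each seen in at least 10% of cells in both libraries, 10 in each direction between the libraries, seen in at least 10% in 1 library, and up to 4 furthest of each of 18 lists. Il6, Hdc, Arg1 and Pclaf were named after their values were seen. Not every gene this rule names is reported here, and genes furthest in a list are mostly given in that list's counts. Receptor segments, ribosomal, mitochondrial, haemoglobin, sex-linked and unnamed genes were left out of naming. Alternatives changed the fold, count minimum, cell filter, cytokine minimum, Foxp3 rule, depth and scaling, and left out the highest cell per gene.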

Additional observations from a re-analysis of the deposited data

Results flagged for a closer look

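Ccl1, the ligand of CCR8, stood in opposite directions in related cells. Its log2 ratio of CD27_KO over WT was −1.73 in Il5 or Il13 cells and 3.56 in Gata3 and Il1rl1 cells without Il5, Il13 and Foxp3. Within WT, 10 of 89 Il5 or Il13 cells and 0.916% of the Gata3 and Il1rl1 cells had Ccl1, against 9 of 170 and 3.02% in CD27_KO. The highest cell held 41.3% of the Ccl1 UMIs of CD27_KO and 30.8% of those of WT Il5 or Il13 cells. The difference between the 2 ratios was not tested, as there is 1 library per group.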

How the results depend on the processing

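No paired analysis was possible because each group is 1 library. The ratio of the shares of Il5 or Il13 cells, 1.77, ran from 1.495 to 1.96 over its alternatives, and the ratios for Gata3, Il1rl1, Il4 and Areg kept their direction. Alternatives added after seeing the data left out barcodes shared between libraries, cells with Mki67 or Top2a, cells with Ikzf2 or Ctla4, and barcodes with dendritic or B cell genes. Against the other cells, the 32 higher genes became 106 at 1.5-fold, 66 at a minimum of 20 UMIs and 18 with a stricter cell filter, and the 7 lower genes became 32, 18 and 3 there and 4 when weighted by depth. Against Gata3 and Il1rl1 cells, the 4 higher genes became 11 at 1.5-fold, 12 at 20 UMIs and 2 without the highest cell per gene, and the 0 lower genes became 1 at 1.5-fold, at 20 UMIs and with at least 2 UMIs of Il5 and Il13. Between the libraries, the 91 higher and 27 lower genes in CD27_KO became 396 and 134 at 1.5-fold, 449 and 127 at 20 UMIs, 35 and 16 with at least 2 UMIs of the cytokines, 19 and 10 after thinning, and 55 and 10 without the highest cell per gene. Leaving out cells with Mki67 or Top2a gave 53 higher genes. Centring on the median gene gave 70 higher and 38 lower. Of 1039 values of named genes under the alternatives, 110 moved and 1 turned round: Kcnab2 stood at −0.0411 in CD27_KO over WT with at least 2 UMIs of the cytokines. Where an alternative kept fewer cells or UMIs, fewer genes could be called. Depth limits most statements on single genes, since 89 WT cells held 331923 UMIs in all.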
